A study of Mus musculus with 4 samples.

Results

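The genes of the amino acid stress response followed here in single cells of subcutaneous (s.c.) LLC tumors are Atf4, Ddit3, Trib3, Chac1, Asns, Psat1, Phgdh, Aldh1l2, Slc7a3 and Sesn2, and all 10, taken by symbol, were among the 18605 genes listed in every library. LLC is the Lewis lung carcinoma, a mouse lung cancer cell line, so all tumors came from 1 line grown in syngeneic hosts. Radiotherapy (RT) was 3 fractions of 8 Gy, 24 Gy together, and single irradiated tumors gave the 3 libraries RT1, RT2 and RT3. For radiation naive tumors (NT) there was 1 library, in which 3 mock-treated tumors were pooled. The hosts of both groups were female C57/BL6N mice of 6 to 8 weeks, and all tumors were collected 72 h after radiation. Because NT is 1 library, the spread within NT could not be measured, and no test between NT and RT was made. A gene was instead counted as higher or lower in RT when every RT library lay at least 1.5-fold on the same side of NT.

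ATF4 is the transcription factor at the end of the integrated stress response. When amino acids run short, when unfolded protein builds up in the endoplasmic reticulum (ER) or when mitochondria fail, kinases phosphorylate eIF2alpha. General translation then drops while Atf4 mRNA is translated better, and the protein switches on genes that import and make amino acids and charge tRNAs. If the stress lasts, the same pathway induces CHOP (the product of Ddit3), TRIB3 and CHAC1. Since ATF4 is largely controlled at translation, its mRNA level and the level of its targets need not move together.

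The counts are unique molecular identifiers (UMIs), that is, captured mRNA molecules. NT held 9976 cells after filtering, RT1 15029, RT2 14993 and RT3 15060, from tables with 69667759, 78585759, 108699844 and 85660188 UMIs in that order. The table of RT2 differed from the others, since it listed genes by symbol alone and held no barcode above 11.95% mitochondrial UMIs, whereas the others reached 91.5% to 97.0%. Pairs of libraries shared 175 to 274 cell barcodes, 1.73% to 1.83% of the smaller library. Clusters with the LLC markers Rhox5, Krt8 and Hmga2 were named tumor-like and are called tumor cells hereafter, likewise the other populations. NT held 5964 tumor cells, RT1 5879, RT2 5018 and RT3 7232. Rhox5, a homeobox gene that is high in LLC cells, stood at 1074 CPM (the usual scaled count, here UMIs of one gene relative to all UMIs of that cell type in that library) in NT tumor cells and at 1335, 1227 and 1192 CPM in RT1 to RT3. Of the 9 tumor markers looked at, only 4 reached 5 CPM in tumor cells, namely Rhox5, Krt8, Hmga2 and Krt18. In the same cells, Ptprc of leukocytes was at 0.518 to 1.12 CPM, Col1a1 of fibroblasts at 1.66 to 4.83 CPM and Pecam1 of endothelial cells at 0.111 to 0.698 CPM. Other genes of those lists were present: of the 7 fibroblast markers 5 reached 5 CPM, and they summed to 842 CPM in NT and to 1478, 1085 and 1314 CPM in RT, most of it Col3a1 (716 CPM in NT and 1089, 887 and 1047 CPM in RT), while the endothelial marker Plvap was at 6.10 to 9.55 CPM. Macrophage markers were not absent: the 8 markers summed to 8.48 CPM in NT tumor cells and to 37.2, 48.8 and 21.0 CPM in RT1 to RT3. Cd68 was at 2.98 CPM in NT and at 8.06, 8.42 and 7.32 CPM in RT, and C1qb at 0.981 CPM in NT and at 8.21, 13.2 and 3.91 CPM in RT. The 7 monocyte markers summed to 454 CPM in NT and to 962, 770.0 and 724 CPM in RT, most of it Fn1 (392 CPM in NT and 825, 648 and 591 CPM in RT). The 7 neutrophil markers summed to 13.2 CPM in NT and to 36.7, 40.2 and 25.4 CPM in RT, most of it Mmp9 (10.6 CPM in NT and 30.8, 30.5 and 18.4 CPM in RT). The 8 dendritic cell markers went the other way, from 400.2 CPM in NT to 229, 306 and 284 CPM in RT, nearly all of it Fscn1. In bulk sums of this kind, fewer cells of a type and less RNA per cell cannot be told apart, and the part of RNA from other cells in the values was not tested. A further 3 clusters carried LLC markers but stayed unnamed. They were cluster 1, led by Lum, with 12.6% of the cells in NT and 13.6%, 15.6% and 12.1% in RT1 to RT3, the shallow cluster 5, with 8.81% in NT and 8.73%, 8.51% and 9.96% in RT, and cluster 12, a mix of tumor and macrophage markers, with 0.732% in NT and 2.13%, 2.03% and 1.58% in RT.

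The DNA element through which ATF4 dimers with C/EBP proteins act is usually written TGATGNAA. It was searched on both strands (TTNCATCA on the other) in windows from 250 bases before to 50 bases after the gene starts given by RefSeq for GRCm38.p6, an older build than the GRCm39 named in the submitters' processing notes. Of the 10 genes, 8 had a window, and 3 of these, Asns, Trib3 and Chac1, held a match. The 30 bases around each match are shown because all 3 genes later share their highest level in the same tumor sub-cluster, with the match in capitals and on the strand of the gene.
Asns: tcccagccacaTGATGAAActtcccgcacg
Trib3: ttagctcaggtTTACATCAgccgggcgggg
Chac1: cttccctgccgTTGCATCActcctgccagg
The Asns run lies at chr6:7693214-7693243 (minus strand), and its match begins 23 bases before the start of the gene. The Trib3 run lies at chr2:152344028-152344057 (minus strand), with the match 15 bases into the transcribed part. The Chac1 run lies at chr2:119351038-119351067 (plus strand), with the match 193 bases before the start. Over all 32851 windows, 3.97% held a match, and 4.51% of the 27025 genes had at least 1 such window. Among related lists, 7 of 18 other targets of ATF4 or CHOP with a window held a match, as did 5 of 11 cytosolic aminoacyl-tRNA synthetases and 2 of 7 amino acid transporters, against 0 of 14 ER chaperones and 0 of 9 p53 targets. These are matches of letters, not measured sites, and the windows of Atf4, Ddit3, Psat1, Phgdh and Sesn2 did not hold these letters. Of these, Psat1 and Sesn2 were also highest in the same tumor sub-cluster as Asns, Trib3 and Chac1. That sub-cluster was picked for the highest mean of the 10 genes.

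The first comparison asked whether tumor cells of irradiated tumors held more or less of the 10 transcripts than those of NT tumors. Of the 8 genes with at least 5 CPM in the mean of the 4 libraries, none was higher or lower in RT by the 1.5-fold rule, beside 4.07% of the 9229 genes tested that were higher and 0.563% that were lower. Leaving out 1 RT library moved these background counts, from 376 to as many as 627 genes higher and from 52 to as many as 226 lower. Chac1 and Ddit3 fell short of 5 CPM. Chac1 was the single gene of the 10 that lay 1.5-fold below NT in all 3 RT libraries, at a level that kept it out of the count. Over all 10 genes the median of the mean log2 ratios was -0.14, and over the 8 tested it was -0.00, beside -0.05 for all genes tested.

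Among the regulators, Atf4 itself stood at 376 CPM in NT and at 350.5, 461 and 344 CPM in RT1 to RT3. RT1 and RT3 lay below NT and RT2 above it, so the RT mean of 385 CPM ± 65.4 (SD, n = 3) spanned the NT level. RT2 also held the highest Atf4 level in tumor cells, macrophages, monocytes and lymphocytes. Among 7248 genes at 5 CPM or more in tumor cells, macrophages, monocytes and lymphocytes, 6.95% were highest in RT2 in all of these. Ddit3, which encodes the death-promoting factor CHOP, was at 4.996 CPM in NT and at 2.99, 5.23 and 4.79 CPM in RT1 to RT3. RT1 was low and the others lay near NT. Ddit3 is listed under 2 overlapping gene identifiers in the tables, with all UMIs on one of them, so its counts may miss reads that fall on both.

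Trib3 encodes a pseudokinase that is induced by ATF4 and CHOP and feeds back on them. It was at 7.77 CPM in NT and at 7.11, 9.58 and 6.51 CPM in RT1 to RT3, again on both sides of NT. Chac1, a gamma-glutamyl cyclotransferase that degrades glutathione, was at 6.51 CPM in NT (352 UMIs) and at 3.64, 3.40 and 3.83 CPM in RT1 to RT3 (169, 200 and 230 UMIs). All RT libraries were below NT, and the counting intervals, 5.85 to 7.23 CPM in NT and 2.95 to 4.36 CPM over the RT libraries, did not overlap. The mean log2 ratio was -0.85 ± 0.08 (SD, n = 3), and it was -0.58 with cells thinned to 2000 UMIs, which left out 255 shallower tumor cells in NT and 341, 393 and 494 in RT1 to RT3, and -0.56 with every cell given equal weight.

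**Figure D1:**
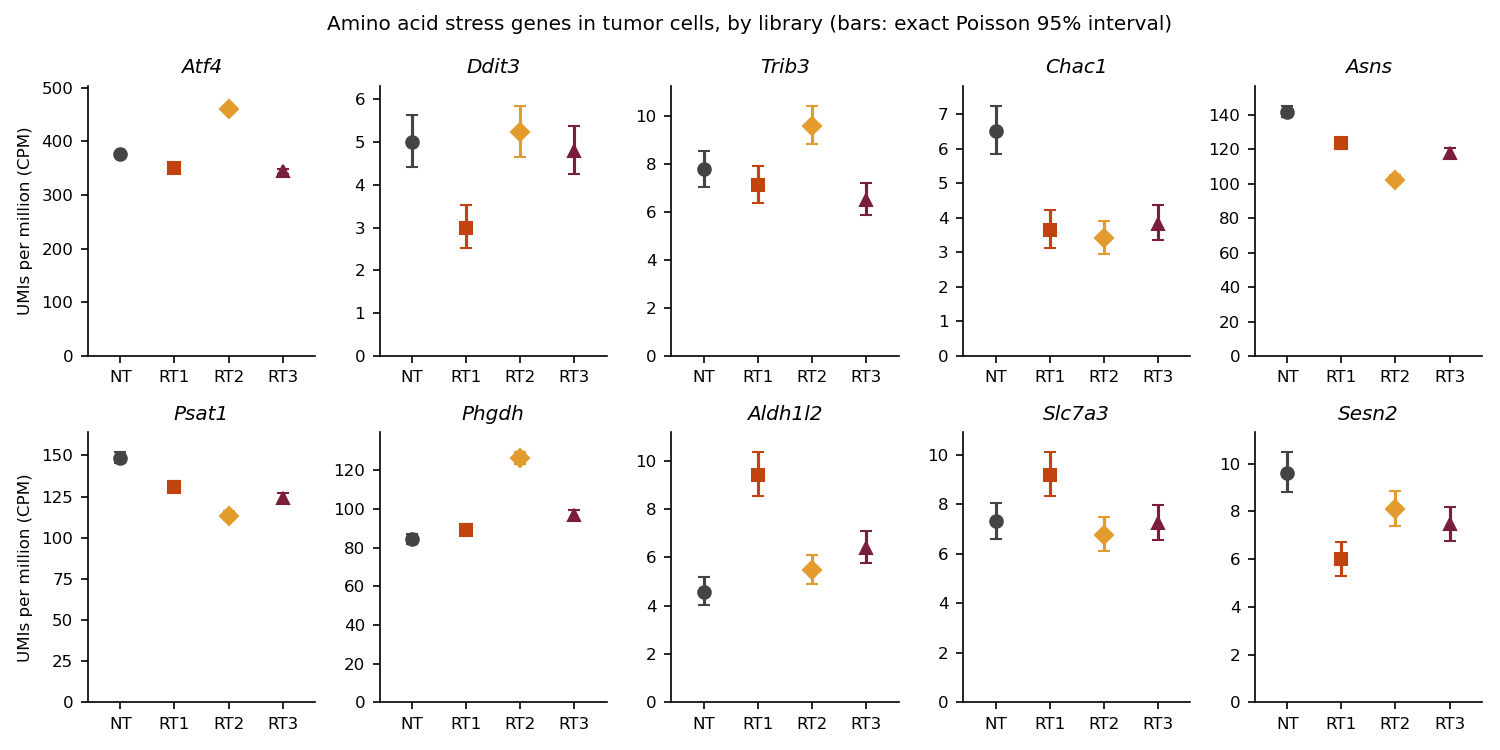
CPM of each gene in tumor cells (vertical axes, each starting at 0) for the NT library (circle) and the libraries RT1, RT2 and RT3, with exact Poisson 95% intervals that cover counting error only. Chac1 lay at 6.51 CPM in NT and at 3.40 to 3.83 CPM in RT, Asns and Psat1 were highest in NT, and Atf4, Trib3 and Phgdh were highest in RT2.

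Asparagine synthetase (Asns) was at 142 CPM in NT and at 123, 102 and 118 CPM in RT1 to RT3. Psat1, the aminotransferase of serine synthesis, was at 148 CPM in NT and at 131, 113 and 124 CPM. Both were lower in every RT library, Asns by a mean log2 ratio of -0.31 ± 0.14 and Psat1 by -0.28 ± 0.11, short of 1.5-fold. Phgdh, which encodes the dehydrogenase one step before PSAT1, went the other way. It was at 84.4 CPM in NT and at 89.3, 126 and 97.0 CPM in RT1 to RT3, all above NT, with RT2 standing apart (mean log2 ratio 0.29 ± 0.26).

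Aldh1l2 encodes the mitochondrial enzyme that oxidizes 10-formyltetrahydrofolate. It was at 4.57 CPM in NT and at 9.41, 5.48 and 6.41 CPM in RT1 to RT3. Every RT library was above NT, but the fold ranged from a log2 ratio of 0.26 in RT2 to 1.04 in RT1. Slc7a3, a transporter of cationic amino acids such as arginine, was at 7.31 CPM in NT and at 9.18, 6.77 and 7.24 CPM in RT1 to RT3, on both sides of NT. Sesn2, a stress-induced sestrin that senses leucine and restrains mTORC1, was at 9.60 CPM in NT and at 5.99, 8.10 and 7.45 CPM. All RT libraries were below NT (mean log2 ratio -0.43 ± 0.23). In all, 2 of the 8 genes tested were above NT in every RT library and 3 below in every one, beside 26.8% and 33.6% of all genes tested.

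**Figure D2:**
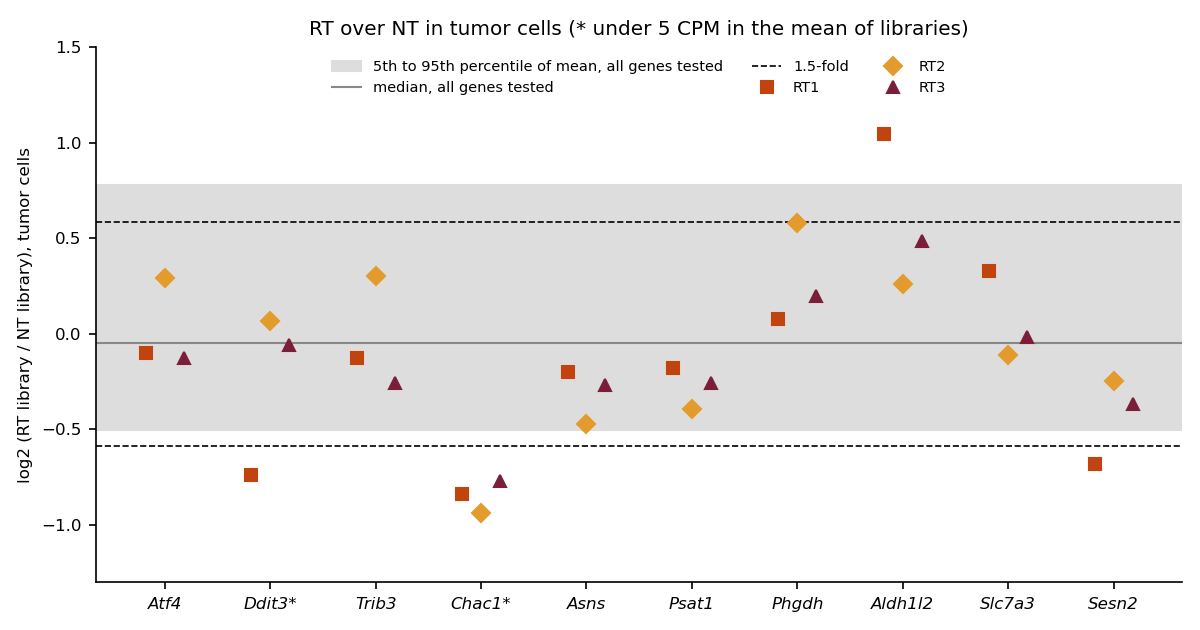
log2 of each RT library over NT in tumor cells for the 10 genes, with the 5th to 95th percentile (-0.50 to 0.78) and the median (-0.05) of the mean ratios of 9229 genes as background and dashed lines at 1.5-fold. Chac1 is the only gene with all 3 points outside the dashed lines, and Ddit3, Aldh1l2 and Sesn2 have 1 point outside them, each from RT1.

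The other lists of the pathway are read against the same shares of all genes, 4.07% higher and 0.563% lower. None of the 8 eIF2alpha kinases and phosphatase subunits tested was past 1.5-fold, and neither were any of the 8 amino acid transporters. Of these transporters 4 were below NT in every RT library and 1 above, beside 33.6% and 26.8% of all genes tested. The 1 above was Slc3a2, at 267 CPM in NT and at 302, 297 and 309 CPM in RT1 to RT3. Among the 4 below, Slc7a5, the large neutral amino acid transporter, was at 163 CPM in NT and at 132, 125 and 129 CPM in RT1 to RT3. Of 18 synthetases, Rars (arginyl-tRNA synthetase) was higher, at 95.01 CPM in NT and 215, 180.1 and 165 CPM in RT. Of 11 enzymes of serine, folate, proline and sulfur amino acid metabolism, Psph, the phosphatase that completes serine synthesis, was higher, at 14.3 CPM in NT and 27.8, 24.8 and 22.2 CPM in RT.

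Of 16 other targets of ATF4 or CHOP tested, 2 were higher and 1 lower. Eif4ebp1, a repressor of cap-dependent translation, was at 76.1 CPM in NT and at 250.1, 324 and 157 CPM in RT1 to RT3. Jdp2, a bZIP factor, was at 17.3 CPM in NT and at 32.0, 34.96 and 27.7 CPM. Tnfrsf10b, the TRAIL receptor DR5, was the gene that was lower, at 54.8 CPM in NT and at 30.4, 29.4 and 34.0 CPM. None of 16 ER chaperones of the ATF6 and XBP1 branches was past 1.5-fold. The p53 targets had 3 of 9 genes higher and none lower, with a median log2 ratio of 0.29. They were Cdkn1a, the cell cycle inhibitor p21 (21.0 CPM in NT and 44.5, 40.7 and 35.1 CPM in RT), the nuclease gene Aen (8.09 CPM in NT and 20.5, 20.8 and 15.03 CPM in RT) and Sesn1. Sesn1, a sestrin counted here among the p53 targets, was at 13.3 CPM in NT and at 33.5, 31.6 and 25.9 CPM in RT1 to RT3, a mean log2 ratio of 1.18 ± 0.20. Its paralog Sesn2 lay below NT in the same 3 libraries. Of the mitochondrial stress genes, the protease gene Oma1 was 1 of 9 that was higher, at 8.27 CPM in NT and 17.6, 16.3 and 14.5 CPM in RT. None of 11 hypoxia genes and none of 10 cell cycle genes was past the rule, although Mki67, the proliferation marker, was at 121 CPM in NT and at 85.7, 59.2 and 78.9 CPM in RT1 to RT3.

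The second comparison set tumor cells against tumor-associated macrophages within each of the 4 libraries, and is the 1 comparison here with a test. UMIs were summed per library and cell type and fitted with edgeR's quasi-likelihood test with library as a block, over 13017 genes. The fit used TMM scaling, which centers the ratios: without it, on library totals as in the CPM values, the log2 ratios of all genes were 0.57 higher in the median (7536 genes higher and 3304 lower in tumor cells, against 5227 and 4906). The fitted ratios below are therefore smaller than those of the CPM printed beside them. Of the 10 genes, 8 were higher in tumor cells and 1 lower, beside 40.2% of all genes that were higher and 37.7% that were lower. Asns differed by a log2 ratio of 3.20 ± 0.18 (SE, adjusted p = 4.58e-07), with 142, 123, 102 and 118 CPM in tumor cells of NT, RT1, RT2 and RT3 and 5.97, 8.90, 6.52 and 13.9 CPM in their macrophages. Phgdh differed by 3.11 ± 0.25 (adjusted p = 4.52e-06 in edgeR), and the level in macrophages ran from 3.98 CPM in NT to 15.2 CPM in RT3. The cell types did not overlap in either gene. Aldh1l2, Slc7a3, Chac1 and Trib3 were higher by log2 ratios of 3.34, 3.00, 2.83 and 2.67. They rested on 10 to 24 UMIs each in all macrophages together. Slc7a3 was at 0 UMIs in the macrophages of NT and RT3, and Aldh1l2 at 1 UMI in those of NT and 0 in those of RT3.

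Psat1 was higher in tumor cells by a smaller log2 ratio of 1.31 ± 0.12 (adjusted p = 1.20e-05 in edgeR). Its macrophage level was 58.9 CPM in NT and at 29.6, 28.9 and 30.5 CPM in RT1 to RT3. Atf4 differed least among the genes that were higher, by 0.41 ± 0.10 (adjusted p = 0.0043 in edgeR), from 200.3, 146, 248 and 195 CPM in macrophages to 376, 350.5, 461 and 344 CPM in tumor cells. On library totals the log2 ratio of Atf4 was 0.97, and without the library block its adjusted p in edgeR was 0.0708. Ddit3 alone was lower in tumor cells than in macrophages, by -1.04 ± 0.16 (adjusted p = 0.000295 in edgeR), with 9.16, 3.61, 6.45 and 7.06 CPM in the macrophages of NT, RT1, RT2 and RT3. On library totals the log2 ratio of Ddit3 was -0.47 (adjusted p = 0.0268 in edgeR). Sesn2 did not pass the threshold, and its ratio depended on the scaling and on RT2. In CPM it was higher in tumor cells in NT, RT1 and RT3 (9.60, 5.99 and 7.45 CPM against 4.38, 5.41 and 6.60 CPM in macrophages) and lower in RT2 (8.10 against 13.9 CPM). The log2 ratio was -0.63 ± 0.26 with TMM (adjusted p = 0.0533 in edgeR) and -0.05 on library totals (adjusted p = 0.865 in edgeR). With TMM it was -0.85 without NT (adjusted p = 0.00178 in edgeR) and -0.15 without RT2 (adjusted p = 0.602 in edgeR).

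LLC transcripts were present in macrophages, and their levels belong beside these values. Rhox5 was at 41.0 CPM in NT macrophages and at 74.2, 56.6 and 90.4 CPM in RT1 to RT3, that is 3.82% to 7.58% of its level in tumor cells of the same library. Asns stood in macrophages at 4.21% to 11.8% of the tumor cell level and Phgdh at 4.69% to 15.7%, close to the shares of the LLC markers Rhox5, Krt8 and Hmga2, which ran from 3.82% to 13.3%. Psat1 at 22.6% to 39.7% and Atf4 at 41.6% to 56.8% lay above all of these shares. How much of each macrophage value was tumor RNA was not tested.

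Within macrophages, 6 of the 10 genes reached 5 CPM, and Psat1 was lower in RT by the 1.5-fold rule, beside 6.0% of 8673 genes that were lower and 8.19% that were higher. The RT mean was 29.7 CPM ± 0.80, and the mean log2 ratio was -0.99 ± 0.04 (SD, n = 3). Marker levels in the same macrophages moved too: the 7 neutrophil markers summed to 94.0 CPM in NT and to 358, 560.4 and 175 CPM in RT1 to RT3, C1qb stood at 1841 CPM in NT and at 3823, 4901 and 3612 CPM in RT, and F13a1 at 448 CPM in NT and at 1283, 585 and 929 CPM in RT. Their part in the Psat1 result was not tested. In monocytes, which also gave 6 genes at 5 CPM, Psat1 was at 53.01 CPM in NT and at 50.2, 49.9 and 48.2 CPM in RT1 to RT3. Phgdh was higher in RT monocytes by the same rule, at 4.001 CPM in NT from 4 UMIs and at 6.48, 7.39 and 15.4 CPM in RT. Beside it, 12.7% of 8440 genes were higher and 3.9% lower. NT alone was below 5 CPM, so Phgdh passed the filter only through its RT levels. Its NT counting interval (1.09 to 10.2 CPM) overlapped those of RT1 (4.11 to 9.73 CPM) and RT2 (5.35 to 9.96 CPM). Only RT3, at 11.3 to 20.5 CPM, lay clear of it. Rhox5 moved with Phgdh in RT1 and RT3, at 60.0 CPM in NT and at 70.5, 58.8 and 95.04 CPM in the RT monocytes. The part of tumor RNA in the result was not tested. NT is the same library in all these comparisons.

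The enzymes of serine synthesis were also measured in lymphocytes. Psat1 was at 138 CPM in NT lymphocytes and at 95.05, 119 and 132 CPM in RT1 to RT3, which was 72.6% to 106% of the level in tumor cells. Phgdh was at 47.2% to 61.0% of the tumor cell level and Asns at 24.96% to 56.8%. Lymphocyte clusters also held more LLC RNA, with Rhox5 at 15.7% to 28.2% of its tumor cell level. The Psat1 and Phgdh shares lay above those of Rhox5, Krt8 and Hmga2, whose highest was 30.7%, in all 4 libraries.

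**Figure D3:**
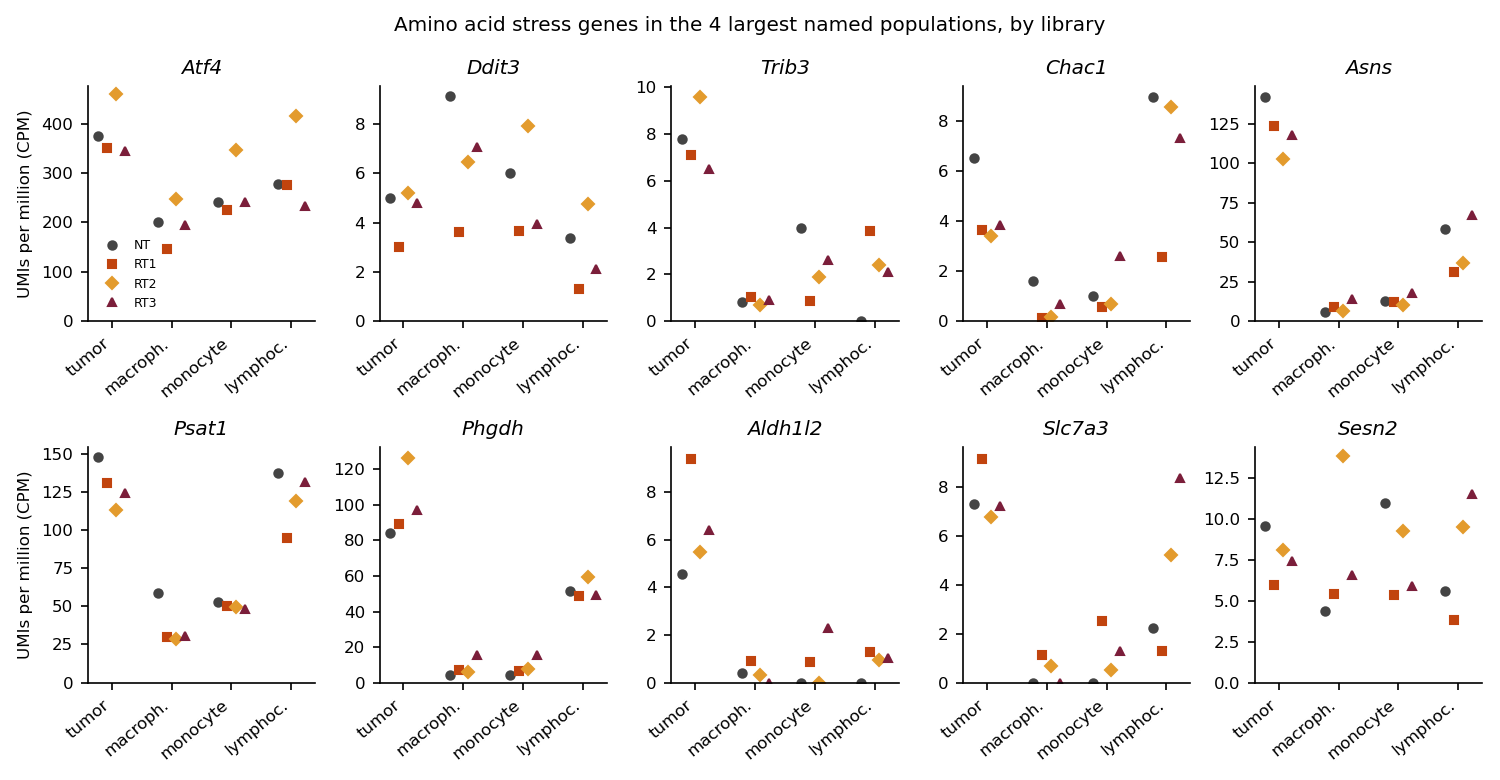
CPM of each gene (vertical axes from 0) in tumor cells, macrophages, monocytes and lymphocytes, with 1 point per library. Asns, Phgdh and Aldh1l2 were highest in tumor cells in every library, Psat1 was about as high in lymphocytes, and Ddit3 was higher in macrophages than in tumor cells in every library.

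The third comparison looked inside the tumor cells, which were clustered again without the 10 genes or any gene of the lists above. Of 15 sub-clusters, 14 held at least 20 cells in every library and were ranked. Sub-cluster 8 held the highest level of 7 of the 10 genes in all 4 libraries, namely Trib3, Chac1, Asns, Psat1, Aldh1l2, Slc7a3 and Sesn2. No share of all genes that were first there in every library is given beside this count. Sub-cluster 8 was picked as the one with the highest mean of the 10 genes, so a high count of them there was partly set by that choice. Sub-cluster 8 was small, with 759 cells (136 in NT and 246, 161 and 216 in RT1 to RT3). The genes are read in the same cells that were clustered, so these differences are descriptions and no test was made.

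Trib3 was at 91.8, 74.7, 135 and 85.2 CPM in sub-cluster 8 of NT, RT1, RT2 and RT3 and at 6.45, 5.02, 7.17 and 4.81 CPM in the other tumor cells. That was 16.4-fold ± 2.18 higher (SD, n = 4 libraries). Aldh1l2 was at 88.3, 104, 82.5 and 89.1 CPM against 3.25, 6.49, 3.99 and 4.62 CPM, the widest of these ratios at 20.8-fold ± 4.66. Each of these levels is 1 sum per library, and sub-cluster 8 was picked for high levels of the genes compared. Slc7a3 was 17.4-fold ± 3.90 higher, Chac1 13.9-fold ± 6.13 and Sesn2 7.05-fold ± 1.07. These ratios are against all other tumor cells together, among which sub-clusters differed. Sub-cluster 11, with 541 cells and the noncoding RNA genes Snhg4, Snhg20 and Neat1 among its leading genes, was second in the mean for Slc7a3, Aldh1l2, Chac1 and Asns. Slc7a3 stood there at 14.7, 52.6, 54.4 and 17.8 CPM (NT, then RT1 to RT3), where sub-cluster 8 held 94.2, 91.2, 109 and 93.1 CPM. Its levels of Aldh1l2 (5.50, 40.3, 29.9 and 9.70 CPM) and Trib3 (9.17, 35.6, 28.5 and 6.47 CPM) were likewise high in RT1 and RT2 and low in NT and RT3.

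The enzymes of asparagine and serine synthesis were more widely spread. Asns was at 520.1, 458, 460.1 and 447 CPM in sub-cluster 8 and at 136, 113, 95.5 and 111 CPM in the other tumor cells, or 4.18-fold ± 0.44. Psat1 was 2.39-fold ± 0.16 higher and Phgdh 1.96-fold ± 0.30. Phgdh was highest in sub-cluster 5 in the mean of libraries (236 CPM against 195 CPM in sub-cluster 8).

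Atf4 was at 617, 658, 1144 and 729 CPM in sub-cluster 8 and at 372, 341, 447 and 336 CPM in the other tumor cells, 2.08-fold ± 0.38. It was first in the RT libraries and second in NT, where sub-cluster 6, with Cdk1 and Plk1 among its leading genes, held 695 CPM. Ddit3 did not share the pattern. It was at 7.16, 2.87, 8.97 and 4.73 CPM in sub-cluster 8, from 4 to 10 UMIs a library, and at 4.96, 3.00, 5.15 and 4.79 CPM in the rest. Its highest mean levels were in sub-cluster 7 (33.0 CPM ± 7.24) and sub-cluster 5 (21.4 CPM ± 6.66). Both had Rpl35, Ndufb7 and Crip1 among their leading genes, and sub-cluster 7 was led by the stress gene Nupr1.

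**Figure D4:**
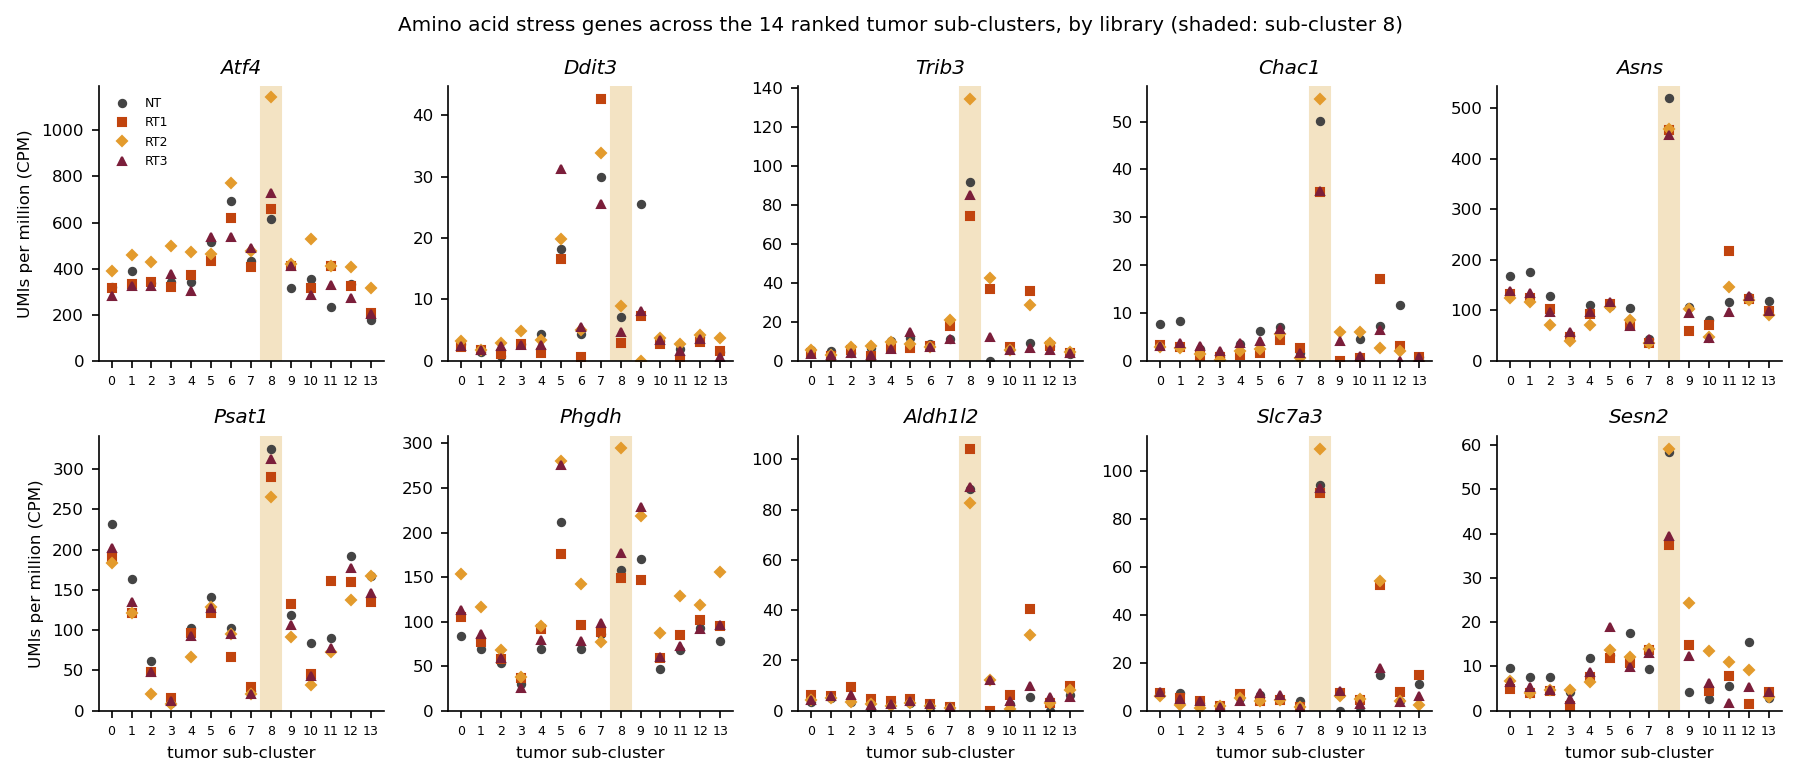
CPM of each gene (vertical axes from 0) in the 14 ranked tumor sub-clusters, with 1 point per library and sub-cluster 8 shaded. Sub-cluster 8 was picked for the highest mean of these genes. Trib3, Chac1, Asns, Psat1, Aldh1l2, Slc7a3 and Sesn2 peak in sub-cluster 8 in all 4 libraries, whereas Ddit3 peaks in sub-clusters 7 and 5.

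Because sub-cluster 8 was rich in these transcripts, it carried more of them than of all RNA. It held 1.55% of the tumor cell UMIs in NT and 3.00%, 1.90% and 2.11% in RT1 to RT3. Of the Trib3 UMIs of tumor cells it held 18.3% in NT and 31.5%, 26.6% and 27.6% in RT, and of the Aldh1l2 UMIs 30.0% in NT and 33.2%, 28.6% and 29.4% in RT. As a share of tumor cells, it made up 2.28% (95% Clopper-Pearson interval 1.92 to 2.69) in NT and 4.18% (3.69 to 4.73), 3.21% (2.74 to 3.73) and 2.99% (2.61 to 3.41) in RT1 to RT3. Every RT library was above NT, with the intervals of NT and RT3 overlapping, and the RT mean was 1.18 percentage points higher. This difference was 0.68 points with cluster 1 counted among the tumor cells and 2.30 points for the matching sub-cluster at a clustering resolution of 0.4. That matching sub-cluster was larger, and 58.7% of its cells were from sub-cluster 8. The intervals cover counting error only, and with 1 NT library the difference was not tested.

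Inside sub-cluster 8, the mean log2 ratios of RT over NT were 0.05 ± 0.45 for Trib3 and 0.05 ± 0.14 for Slc7a3 (SD, n = 3), with RT2 above NT and RT1 and RT3 below. Atf4 was above NT in all 3 RT libraries, mainly in RT2 (0.41 ± 0.42). Asns was below NT in all 3 RT libraries (-0.19 ± 0.02), short of 1.5-fold. Chac1, by contrast, was lower mainly outside it. In the other tumor cells Chac1 was at 5.83 CPM in NT and at 2.67, 2.41 and 3.14 CPM in RT1 to RT3 (mean log2 ratio -1.10 ± 0.19), whereas in sub-cluster 8 it was at 50.1 CPM in NT and at 35.2, 54.7 and 35.5 CPM in RT (-0.29 ± 0.36), from 42 to 61 UMIs. Aldh1l2 was above NT in all 3 RT libraries outside sub-cluster 8 (0.60 ± 0.36), but short of 1.5-fold in RT2 and RT3, and on both sides of NT inside it (0.05 ± 0.17). Neither difference was tested.

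Other genes of the pathway followed into sub-cluster 8 by branch. With a fold of 1.5 in all 4 libraries, 4.49% of 9229 genes were higher in sub-cluster 8 than in the other tumor cells and 7.5% lower. All 8 amino acid transporters tested were higher, with a median log2 ratio of 1.5998 against -0.01 for all genes, among them the heavy chain Slc3a2 at 780.1, 903, 886 and 916 CPM against 259, 283, 285 and 296 CPM. So were 10 of 11 enzymes of serine, folate, proline and sulfur amino acid metabolism, 9 of 18 synthetases and 11 of 16 other targets of ATF4 or CHOP. Gdf15, a stress-induced hormone of the TGF-beta family, was at 151, 94.8, 181 and 99.4 CPM in sub-cluster 8 of NT, RT1, RT2 and RT3 and at 13.2, 11.5, 19.4 and 12.9 CPM in the rest. Pycr1, which makes proline, had a mean log2 ratio of 2.85 ± 0.40 and Atf5, a bZIP factor with translational control like that of ATF4, 2.20 ± 0.21.

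The remaining lists varied. Of 16 ER chaperones 1 was higher (Dnajb9, a co-chaperone of BiP), and the median log2 ratio was 0.23. Of 8 eIF2alpha kinases and phosphatase subunits none was. Of 9 p53 targets none was higher, and Sesn1 was lower, at 2.39, 22.3, 12.6 and 16.6 CPM against 13.5, 33.8, 32.0 and 26.1 CPM, opposite to Sesn2. Of 11 hypoxia genes 3 were higher, namely Vegfa, Adm and Ndrg1. Of 9 mitochondrial stress genes 2 were higher, the chaperone gene Hspa9 and Gdf15, which is also among the targets of ATF4 or CHOP. Of 10 cell cycle genes 6 were lower, Mki67 among them at 45.3, 17.95, 22.4 and 21.3 CPM against 122, 87.8, 60.0 and 80.1 CPM. Nupr1 was the 1 target of ATF4 or CHOP that was lower in sub-cluster 8.

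**Figure D5:**
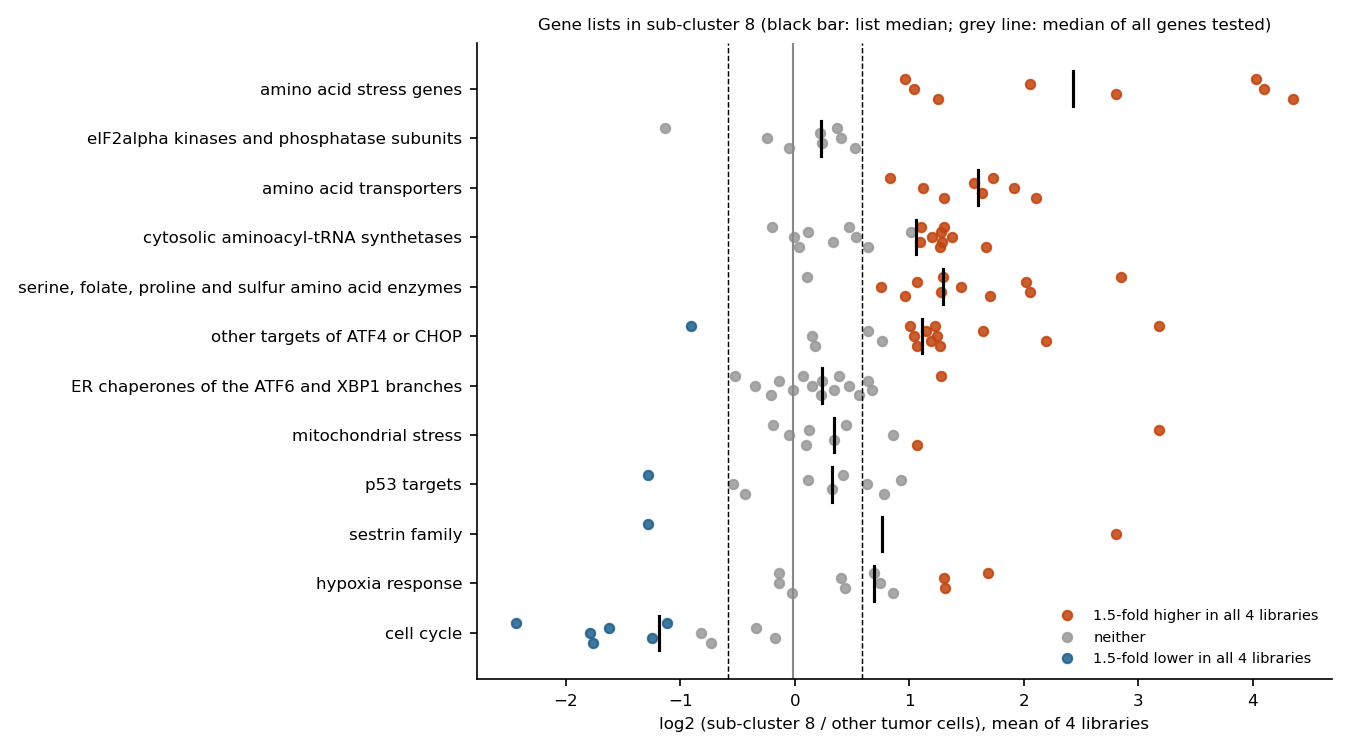
log2 of sub-cluster 8 over the other tumor cells (horizontal axis, mean of 4 libraries) for every gene tested in each list, with the list median as a black bar, the median of all genes tested (-0.01) as a grey line and dashed lines at 1.5-fold. Chac1 and Ddit3 are left out by the filter on low values, which was set on all tumor cells, sub-cluster 8 included. In the other tumor cells Aldh1l2 was at 3.25, 6.49, 3.99 and 4.62 CPM (NT, then RT1 to RT3). It therefore passed the filter only through its level in sub-cluster 8. All 8 transporters lie right of the upper dashed line, the ER chaperones have a median of 0.23, and 6 of 10 cell cycle genes were lower in all 4 libraries.

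Other properties of sub-cluster 8 are given beside these levels. Its median UMI count per cell was 4485, above those of sub-clusters 9, 12 and 11 (879, 2358 and 4034). All the rest were higher, from 5802.5 to 11814. The median mitochondrial share of sub-cluster 8 was 2.54%, while the other 14 sub-clusters ran from 5.39% to 10.6%. Its values were not tested. Its 10 leading genes by fold were Car6, Aldh1l2, Slc7a3, Ccl5, Fam171b, Trib3, Acot2, Gdf15, Cyb5r1 and Rbp4. Rhox5 was at 831, 1152.5, 1315 and 1129.7 CPM in NT, RT1, RT2 and RT3. Of the 9 tumor markers 4 reached 5 CPM in sub-cluster 8, and Krt7 and Cdh1 were at 0. The 8 macrophage markers summed to 15.5 to 67.3 CPM, with Cd68 at 10.7, 17.2, 10.8 and 16.6 CPM in NT, RT1, RT2 and RT3, and the 7 fibroblast markers to 212 to 394 CPM, most of it Col3a1 (158 to 299 CPM). The 7 endothelial markers summed to 14.3, 3.59, 6.28 and 1.58 CPM, with Kdr, Cldn5 and Emcn at 0, and the 7 neutrophil markers to 8.35, 18.7, 21.5 and 21.3 CPM, with Cxcr2 at 5.96 to 7.90 CPM. The 7 monocyte markers summed to 165 CPM in NT and to 291, 165 and 214 CPM in RT1 to RT3, most of it Fn1, with Ccr2 at 0. The 8 dendritic cell markers summed to 211, 139, 176 and 136 CPM, nearly all of it Fscn1. The 9 lymphocyte markers summed to 1.19, 0.718, 2.69 and 2.37 CPM, with Cd3e, Cd3g, Cd3d, Cd2 and Klrb1c at 0 in all 4 libraries. The part of other cells in these levels was not tested. Without the likely doublets (the top 8% by doublet score), 7 of the 10 genes were first in all 4 libraries in the sub-cluster with the highest mean.

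The number of the 10 transcripts found in a cell was also counted, as a description, since sub-cluster 8 is the one with the highest mean of these genes. Cells were thinned to 2000 UMIs and shallower ones left out, so that 126, 209, 133 and 177 cells of sub-cluster 8 were counted in NT and RT1 to RT3, of 136, 246, 161 and 216. These cells held a UMI of 2.54 of the 10 genes on average in NT and of 2.47, 2.99 and 2.51 in RT1 to RT3. The other tumor cells held 1.12, 1.07, 1.11 and 1.04. A UMI of at least 5 of the 10 genes was found in 14.3%, 11.96%, 17.3% and 9.04% of these cells and in 0.161%, 0.225%, 0.267% and 0.0762% of the others. Of the pairs of genes compared over all thinned tumor cells, which took in Trib3, Chac1, Slc7a3, Aldh1l2 and Ddit3 alone, Slc7a3 was detected in 16.9%, 12.3%, 8.57% and 11.8% of the cells with a UMI of Trib3, and in 1.21%, 1.58%, 1.13% and 1.16% of those without. For Ddit3 the contrast was smaller, with Trib3 in 1.92%, 2.33%, 6.98% and 2.86% of 43 to 70 cells with a UMI of Ddit3 and in 1.56%, 1.46%, 2.23% and 1.4997% of the others. These shares rest on very few cells that held both transcripts, and the difference in contrast was not tested. For comparison, 0.116% to 0.217% of thinned macrophages held a UMI of Trib3, against 1.46% to 2.27% of thinned tumor cells. Thinning left out 218 of 679 macrophages in NT and 1001 of 2637, 643 of 2574 and 598 of 1457 in RT1 to RT3, a larger part than of the tumor cells. Before thinning the shares were 0.275% to 0.350% and 4.31% to 8.25%, and the median UMI counts per cell ran from 2392 to 4304 in macrophages and from 6465 to 9621 in tumor cells.

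The genes whose levels ran most like the mean of the 10 across the 14 sub-clusters were, among the 6061 genes with at least 20 CPM that were compared, Nars, Gars and Aars, the asparaginyl-, glycyl- and alanyl-tRNA synthetases, with Pearson r of 0.90, 0.88 and 0.88 (mean of 4 libraries, each over 14 sub-clusters). They were followed by the reductase gene Cyb5r1 (0.85), Nop14 (0.84), Leprotl1 (0.84), Nol9 (0.83), Slc3a2 (0.83), 2410006H16Rik (0.83) and Tbpl1 (0.82). Cyb5r1 was at 344, 378, 510.4 and 363 CPM in sub-cluster 8 and at 63.3, 67.8, 64.0 and 61.3 CPM in the other tumor cells. Of the 10 genes, 4 were at 20 CPM or more, and their own r with the mean was 0.83 for Asns, 0.69 for Phgdh, 0.67 for Psat1 and 0.60 for Atf4. Being among the 10, these 4 do not have r values comparable with those of the genes above. Sub-clusters share libraries and a common total of UMIs, so these values describe the pattern only.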

How the data were processed

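Libraries were made by the authors with a microwell kit (SeekOne MM, 3′ ends) and processed with SeekOne Tools, and the deposited values are UMI counts, whole numbers without normalization. The submitters' processing notes name STAR 2.5.1b, featureCounts, Subread 1.6.4, Cell Ranger and GRCm39. The treatment of reads shared between genes is not given in the sources used here. The genes, lists and rules were chosen with earlier results of these data known.

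Cells with 200 or more genes and no more than 20% mitochondrial UMIs were used (55058 of 55805 barcodes). Tables were joined on symbols. Log-transformed counts per 10000 UMIs of 2000 variable genes, without the list genes, gave 30 components, which were integrated over libraries with a Harmony step (theta 2) and clustered (leidenalg 0.10.2, 20 neighbors, resolution 0.8). Doublets were scored, not removed. A cluster was named by the class whose markers (at least 50 CPM in their highest cluster) came nearest to that cluster, with 3 markers at 25% of it or more. Shallow clusters, and those whose 10 leading genes held more markers of a different class, were left unnamed. This rule replaced, after seeing the data, one relative to the mean of clusters, which had called LLC clusters with Col1a1 near 0 fibroblasts.

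UMIs were summed per library and population and given as CPM. Genes tested had at least 5 CPM in the mean of the 4 libraries. Poisson and Clopper-Pearson intervals are exact, at 95%, and cover counting error only. Tumor cells and macrophages were compared with edgeR 4.0.16 (quasi-likelihood, TMM, library as block, Benjamini-Hochberg over all genes, threshold 0.05), with DESeq2 1.42.0 as an alternative. The SE was derived from the F statistic. Both the edgeR fit and the fold rule were tested on simulated data. For the fold rule these data held Poisson error alone and planted changes larger than 1.5-fold. The spread between tumors was therefore not covered by it. Sequences are from RefSeq (GRCm38.p6), and Aldh1l2 and Slc7a3 had no entry. Named were the 10 genes, of each other list the genes past 1.5-fold or otherwise up to 4 with the largest consistent ratio, and the 10 genes of closest pattern. Other genes named from sub-cluster 8 were chosen after their values were seen.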

Additional observations from a re-analysis of the deposited data

Results flagged for a closer look

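Asns and Sesn2 lay on opposite sides of NT in different cell types, with every RT library on one side in each, although neither passed the 1.5-fold rule in any of them. Asns had a mean log2 ratio of RT over NT of -0.31 in tumor cells and 0.64 in macrophages, the latter from 15 UMIs in NT. Sesn2 had -0.43 in tumor cells, 0.85 in macrophages and -0.73 in monocytes, with 11 UMIs in the NT macrophages and 11 in the NT monocytes. In macrophages Sesn2 stood at 4.38 CPM in NT and at 5.41, 13.9 and 6.60 CPM in RT1 to RT3, so that RT2 carried most of the difference. In macrophages the NT counting interval of Asns (3.34 to 9.85 CPM) overlapped those of RT1 and RT2 (5.22 to 8.06 CPM in RT2). That of RT3, 10.6 to 17.8 CPM, lay above it. For Sesn2 the NT interval (2.19 to 7.84 CPM) overlapped those of RT1 and RT3 (3.99 to 7.17 CPM in RT1). That of RT2, 11.9 to 16.0 CPM, lay above it. The LLC gene Rhox5 was also above its NT level of 41.0 CPM in the macrophages of all 3 RT libraries (74.2, 56.6 and 90.4 CPM). These differences between cell types were not tested, and the part of tumor RNA in them was not tested.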

How the results depend on the processing

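No paired analysis was possible, because NT is 1 library of pooled tumors and nothing links it to a single RT tumor. The count of the 10 genes past 1.5-fold in tumor cells stayed at 0 in both directions under TMM and DESeq2 scaling, other cell filters and clusterings, thinning, weighting and leaving out each RT library. It became 1 lower (Chac1) with no filter on low values. The median log2 ratio of the 10 genes was 0.024 with cells thinned to 2000 UMIs and shallower ones left out, and ran from -0.205 to -0.0299 when single RT libraries were left out (the latter without RT1). Atf4, Trib3, Slc7a3 and Ddit3 changed the sign of their ratio in some alternatives, whereas Chac1, Asns, Psat1, Phgdh, Aldh1l2 and Sesn2 did not in any of 17. For all genes, 1982 were higher and 457 lower with no filter, 219 and 29 at 20 CPM, 101 and 10 at 2-fold, and 83 lower with clusters named relative to their mean (added after seeing the data). Leaving out an RT library gave 412 to 627 higher (627 without RT3) and 76 to 226 lower (226 without RT2, 95 without RT3). Against macrophages, 8 genes stayed higher and 1 to 2 lower when a library was left out. Sesn2 was the second gene that was lower, without NT and without likely doublets (2 lower, log2 ratio -0.67, adjusted p = 0.0457 in edgeR). Without RT2 its log2 ratio was -0.15, and on library totals alone (added after seeing the data) -0.05, with 8 genes higher and 1 lower. Its CPM was higher in tumor cells in NT, RT1 and RT3. Without the library block 7 genes were higher. The share of sub-cluster 8 in RT minus NT was 0.68 percentage points with cluster 1 in the denominator and 2.30 with the matching sub-cluster at resolution 0.4 (both added later). That sub-cluster held 95.4% of the cells of sub-cluster 8, which made up 58.7% of its 1233 cells. Without single RT libraries the difference was 0.82 to 1.42 points. The causes were not tested. In tumor cells, ratios of genes under 10 CPM rest on 139 to 563 UMIs per library. In NT macrophages Asns, Sesn2 and Phgdh rest on 15, 11 and 10 UMIs, in NT monocytes Phgdh on 4, and Ddit3 in sub-cluster 8 on 4 to 10.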

Other observations

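In fibroblasts, of which NT held 17 and RT1, RT2 and RT3 92, 128 and 185, Aldh1l2 stood at 10.9 CPM in NT and at 15.1, 6.38 and 33.8 CPM in RT1 to RT3. These values rest on 1 UMI in NT and on 4, 4 and 21 UMIs in RT1 to RT3. In tumor cells of the same libraries it stood at 4.57, 9.41, 5.48 and 6.41 CPM, within the counting interval of fibroblasts in NT, RT1 and RT2 and below it (20.9 to 51.6 CPM) in RT3. Rhox5 in fibroblasts was at 32.6 CPM in NT and at 238, 244 and 220.3 CPM in RT. The shallow cluster 5, which carried LLC markers, held Slc7a3 at 15.2 CPM in NT and at 17.8, 9.26 and 17.4 CPM in RT, from 82 UMIs. In cluster 1, led by Lum, Psat1 was at 58.8 CPM in NT and at 49.9, 23.2 and 52.8 CPM in RT1 to RT3, below the tumor cells of the same library in all 4.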
